A study of Rattus norvegicus with 18 samples.

Results

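Livers taken after 8 weeks of diethylnitrosamine treatment were compared with livers taken after 5 weeks. All 3 arrays titled for 8 weeks and all 3 titled for 5 weeks were chosen by their labels, which makes 6 of the 18 arrays of the study, and every non-control probe set was tested. The study followed a rat model of hepatic cancer through 5 times, from 5 to 18 weeks of treatment, with untreated livers that were not used here. The rats were Sprague-Dawley, the RNA came from the middle of the right liver lobe, and both groups received the same carcinogen, so they differ by label in the length of treatment alone. Every sample carries the age label of 12 weeks whatever its time of treatment. The labels state no dose, sex, number of rats per group or hour of collection. In the sample descriptions the 3 arrays of each group are numbered as technical replicates. The p-values below therefore measure the spread between arrays, and how far livers of different rats vary cannot be read from them.

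Diethylnitrosamine is activated by cytochrome P450 enzymes of hepatocytes to a product that alkylates DNA, and repeated doses give rise to foci of altered hepatocytes before tumours form. Such foci in the rat are known for high levels of the placental glutathione transferase Gstp1, gamma-glutamyl transferase Ggt1 and several aldo-keto reductases, and for an active antioxidant program driven by the transcription factor NRF2. The liver also holds a strong circadian clock, in which BMAL1 with CLOCK or NPAS2 switches on Per, Cry, Nr1d1 and Dbp genes, and the products of Per, Cry and Nr1d1 act back as repressors.

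The arrays matched their tissue label. All 14 measured hepatocyte markers lay between percentile 67.4 and 100 of the signals on each of the 6 arrays, with Hnf4a the dimmest. Correlations of log2 signals lay between 0.972 and 0.978 within a group and between 0.962 and 0.966 across the 2 groups. The median signal was 137 at 8 weeks and 136 at 5 weeks. The summed signal averaged 23100000 at 8 weeks and 24300000 at 5 weeks. The 20 brightest probe sets held 2.74% of it at 8 weeks and 3.18% at 5 weeks. Both measures were lower on every 8-week array than on every 5-week array (two-sided exact permutation test, p = 0.1 for each). The ratio of 3′ to 5′ signal at control probe sets, a measure of how complete the RNA copies were, differed between the groups. For Gapdh it was 2.12 ± 0.0521 at 8 weeks and 1.47 ± 0.0293 at 5 weeks (SD, n = 3 arrays each), and for beta-actin 4.48 ± 0.203 at 8 weeks and 3.52 ± 0.26 at 5 weeks. The arrays of the 2 groups did not overlap on either ratio (two-sided exact permutation test, p = 0.1 for each, the smallest that 3 against 3 arrays can give). At 12, 16 and 18 weeks the Gapdh ratio averaged 1.23, 1.26 and 1.32, so the 8-week arrays had the highest 3′ excess of the 5 treated groups.

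At 8 weeks, 6 circadian clock genes led by Nr1d1, 7 markers of altered hepatocyte foci and 6 antioxidant genes were called higher than at 5 weeks. A further 4 clock genes, 4 neutrophil genes, the monocyte receptor gene Cd14 and the growth hormone target Socs2 were called lower. Changes are differences of mean log2(signal + 16), 8 weeks minus 5 weeks, and each fold change is on that scale, which understates changes of dim genes. A gene stands for its brightest probe set and was called with a limma adjusted p below 0.05 (Benjamini-Hochberg over all 31042 probe sets) and a change of at least 2-fold. Without the fold threshold 9.1% of genes passed. Of 13912 genes 220 were called, or 1.58%, with 118 higher (0.848%) and 102 lower (0.733%). The median change of all genes was 0.07. In whole tissue, fewer cells of a type and less RNA per cell cannot be told apart.

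**Figure D1:**
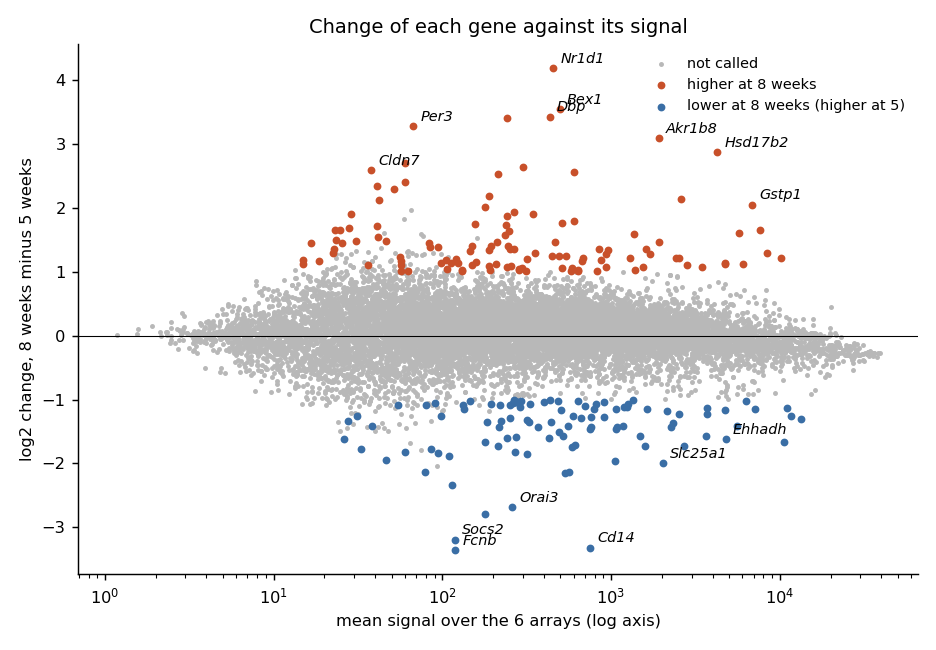
Log2 change of each of the 13912 genes (vertical axis, 8 weeks minus 5 weeks) against its mean signal over the 6 arrays (horizontal log axis), with the 118 genes called higher at 8 weeks in orange and the 102 called lower in blue. Nr1d1 stands at 4.18 and Fcnb at -3.35, and among the 1392 brightest genes the median change was -0.10.

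The circadian clock list held the largest rise of all called genes, that of Nr1d1. Of its 18 measured genes 6 were called higher and 4 lower, against 1.58% of all genes called, and the list median was 0.15. Nr1d1, which encodes the repressor REV-ERB alpha, had signals of 1959, 1950 and 2040 in the 8-week arrays, against 88.9, 83.1 and 112 in the 5-week arrays. Dbp, a transcription factor that drives daily output genes of the liver, had 1390, 1522 and 1468 at 8 weeks, against 124, 110 and 130 at 5 weeks. Per3, a period gene, had 222, 268 and 241 at 8 weeks, against 9.64, 12.5 and 9.98 at 5 weeks. In all 3 genes the groups were far apart and the arrays within a group lay close together. The changes were 4.18 ± 0.117 for Nr1d1 (SE, 18.2-fold, adjusted p = 0.00034), 3.42 ± 0.0914 for Dbp (10.7-fold, adjusted p = 0.000302) and 3.28 ± 0.1 for Per3 (9.7-fold, adjusted p = 0.000445). Nr1d2, the sister repressor REV-ERB beta, rose by 2.57 (adjusted p = 0.00225). Tef, a relative of Dbp, rose by 1.47 (adjusted p = 0.0132), and Bhlhb3 (now Bhlhe41), a clock repressor, rose by 1.38 (adjusted p = 0.00987). The Tef call was lost without any 1 of the 3 arrays at 8 weeks and the Bhlhb3 call without the first of them, with adjusted p up to 0.0598 and 0.0502. The dimmer probe sets of Per3, Nr1d2 and Tef were not called, at 0.21, 0.50 and -0.28.

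The 4 clock genes that fell are known in the mouse as genes that REV-ERB proteins repress. Arntl (now Bmal1), which encodes the activator BMAL1, had 232, 268 and 319 at 8 weeks, against 758, 762 and 637 at 5 weeks. Its partner gene Npas2 had 421, 397 and 432 at 8 weeks, against 1047, 1237 and 878 at 5 weeks. Nfil3, which encodes a repressor that competes with DBP for the same DNA sites, had 416, 464 and 466 at 8 weeks, against 1331, 1157 and 1307 at 5 weeks. The 8-week arrays of all 3 genes lay below every 5-week array. The changes were -1.35 ± 0.144 for Arntl (SE, adjusted p = 0.009), -1.29 ± 0.14 for Npas2 (adjusted p = 0.0093) and -1.46 ± 0.0962 for Nfil3 (adjusted p = 0.00285). The repressor gene Cry1 fell as well, with 236, 224 and 261 at 8 weeks, against 741, 787 and 744 at 5 weeks (change -1.60 ± 0.088, adjusted p = 0.00202). Per1 and Per2, which respond to both the clock and outside signals, were at 0.17 and 0.12 with adjusted p of 0.832 and 0.413. Cry2 was at 0.09 (adjusted p = 0.686), and Clock and Hlf were under a signal of 81.6, the 40th percentile, in both groups.

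**Figure D2:**
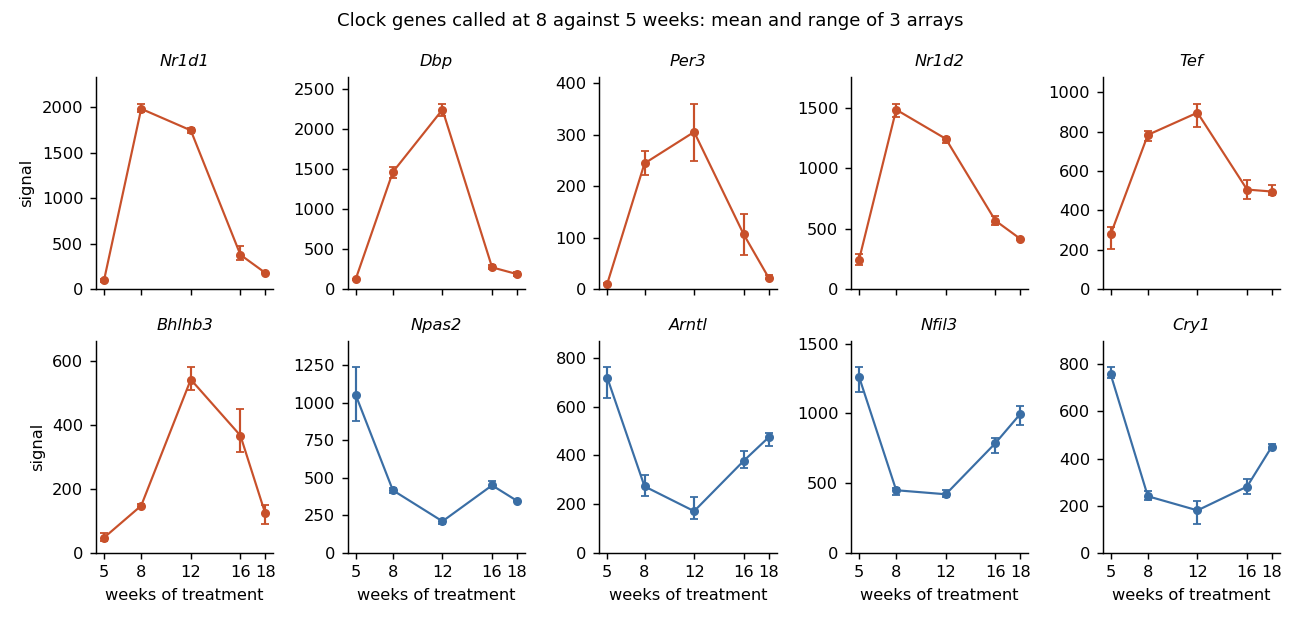
Mean signal (points) and range of 3 arrays (bars) of the 10 called clock genes against weeks of treatment, 5 to 18, on a linear axis from 0; orange genes were called higher and blue genes lower at 8 than at 5 weeks. Nr1d1 averaged 94.6, 1983, 1746, 377 and 179 and Arntl 719, 273, 171, 378 and 474 in order of time.

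The plot of the 10 clock genes sets these values beside the later times, for which no test was run. Nr1d1 averaged 1746, 377 and 179 at 12, 16 and 18 weeks, and Dbp averaged 2238, 271 and 187. Arntl averaged 171, 378 and 474 at 12, 16 and 18 weeks, and Nfil3 averaged 420, 787 and 996. At 18 weeks the levels of Nr1d1, Dbp and Per3 were thus nearer to the 5-week than to the 8-week mean.

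Promoter sequences are shown for the called clock genes that hold either of the clock motifs searched. Whether these motifs had a part in the direction of a change was not tested. RefSeq promoters of build GRCr8, from 250 bases before to 50 bases after the start, were matched for 6 of the 6 genes that rose and 3 of the 4 that fell. The E-box CACGTG, the site of BMAL1 with its partners, was in 3 of the 6 that rose and in 0 of the 3 that fell, beside 6.42% of all 33469 promoters. The core of the ROR element, bound by the ROR receptors and by REV-ERB proteins, was in 0 of the 6 that rose and 1 of the 3 that fell, beside 0.852% of all promoters. Both strands were searched, and a match is a description of letters. Capitals mark the motif in each line (Nr1d1 at chr10:84229405-84229704, minus strand, the second of its entries, with no match in the other; Tef at chr7:115206577-115206876, plus strand; Bhlhe41 at chr4:180569306-180569605, minus strand; Bmal1 at chr1:176766078-176766377, plus strand), with the E-box in the Nr1d1, Tef and Bhlhe41 lines and the ROR element core in the Bmal1 line.
Nr1d1: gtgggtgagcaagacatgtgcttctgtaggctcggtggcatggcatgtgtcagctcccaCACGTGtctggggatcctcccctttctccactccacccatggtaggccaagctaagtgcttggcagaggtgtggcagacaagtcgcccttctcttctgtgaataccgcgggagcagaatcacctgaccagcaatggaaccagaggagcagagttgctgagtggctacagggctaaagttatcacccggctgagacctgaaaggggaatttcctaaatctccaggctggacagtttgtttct
Tef: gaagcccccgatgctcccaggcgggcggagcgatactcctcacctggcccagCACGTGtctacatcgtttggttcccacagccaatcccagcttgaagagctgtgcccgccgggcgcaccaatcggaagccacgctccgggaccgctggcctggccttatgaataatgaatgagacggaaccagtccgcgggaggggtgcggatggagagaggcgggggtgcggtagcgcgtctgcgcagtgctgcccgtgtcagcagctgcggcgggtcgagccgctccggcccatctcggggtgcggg
Bhlhe41: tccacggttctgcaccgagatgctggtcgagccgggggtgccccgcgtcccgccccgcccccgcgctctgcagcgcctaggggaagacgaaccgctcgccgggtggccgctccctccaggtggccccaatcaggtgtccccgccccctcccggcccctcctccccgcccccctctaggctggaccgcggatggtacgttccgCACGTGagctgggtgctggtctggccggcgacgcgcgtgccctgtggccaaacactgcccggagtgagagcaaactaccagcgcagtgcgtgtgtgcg
Bmal1: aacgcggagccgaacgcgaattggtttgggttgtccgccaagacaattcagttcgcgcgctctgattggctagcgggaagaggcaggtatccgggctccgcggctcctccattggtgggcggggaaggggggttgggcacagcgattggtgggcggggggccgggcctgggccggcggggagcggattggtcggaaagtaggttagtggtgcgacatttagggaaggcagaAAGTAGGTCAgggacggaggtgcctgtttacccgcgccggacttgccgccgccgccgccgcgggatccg

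Markers of altered hepatocyte foci were the list with the most calls in 1 direction. Of 17 measured markers 7 were called higher and 0 lower, against 0.848% and 0.733% of all genes, and the list median was 0.72 beside 0.07 for all genes. Gstp1 had 13526, 13869 and 14348 at 8 weeks, against 3417, 3388 and 3277 at 5 weeks. Akr1b8, an aldo-keto reductase, had 5710, 5679 and 5536 at 8 weeks, against 640, 663 and 642 at 5 weeks. Aldh3a1, an aldehyde dehydrogenase that is low in normal rat liver, had 733, 863 and 728 at 8 weeks, against 88.4, 131 and 116 at 5 weeks. The groups did not overlap in any of these genes, and the within-group spread was small beside the difference. The changes were 2.04 ± 0.0719 for Gstp1 (SE, 4.13-fold, adjusted p = 0.000695), 3.09 ± 0.0694 for Akr1b8 (8.52-fold, adjusted p = 0.000203) and 2.64 ± 0.155 for Aldh3a1 (6.23-fold, adjusted p = 0.00226). Akr7a3, the aflatoxin aldehyde reductase, rose by 1.29 (adjusted p = 0.00317), Ddit4l, an inhibitor of mTOR signalling, by 1.90 (adjusted p = 0.00317) and the surface glycoprotein gene Cd24 by 1.11 (adjusted p = 0.00767). Ggt1 rose by 1.35 with 371, 418 and 446 at 8 weeks, against 132, 130 and 200 at 5 weeks (adjusted p = 0.0164). The Ggt1 call was lost without any 1 array other than the third at 5 weeks, with adjusted p up to 0.0659.

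The remaining focus markers did not reach the call. Afp, the fetal albumin relative used as a tumour marker, was at 0.04 (adjusted p = 0.787), and Gpc3, a surface proteoglycan of liver tumours, was at 0.57 (adjusted p = 0.0308). Spp1 was at 0.82 and Anxa2 at 0.72, each with an adjusted p below 0.05 but under 2-fold. Gstp1 averaged 26105, 20328 and 24170 at 12, 16 and 18 weeks and Akr1b8 averaged 23507, 18659 and 23661, all above their 8-week means of 13914 and 5642. Signals of Gstp1, Akr7a3, Mt1a and Hamp at 8 weeks lay above 11692, the level under which 99% of the probe sets of these 6 arrays lie, and whether such signals were saturated was not tested. Paralogs of the aldo-keto reductase and glutathione transferase families are alike in sequence, so their probe sets may share signal.

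Enzymes of antioxidant defence rose in part. Of 24 measured NRF2 targets 6 were called higher and 0 lower, against 0.848% and 0.733% of all genes, with a list median of 0.36. Nqo1, a quinone reductase, had 9860, 9918 and 10170 at 8 weeks, against 3421, 3132 and 3247 at 5 weeks. Slc7a11, the cystine importer that feeds glutathione synthesis, had 543, 501 and 574 at 8 weeks, against 84.7, 99.7 and 60 at 5 weeks. Gpx2, a glutathione peroxidase, had 916, 946 and 1013 at 8 weeks, against 264, 286 and 268 at 5 weeks. Each gene was higher in all 3 arrays at 8 weeks. The changes were 1.61 ± 0.0748 for Nqo1 (SE, adjusted p = 0.0013), 2.53 ± 0.172 for Slc7a11 (adjusted p = 0.00296) and 1.75 ± 0.081 for Gpx2 (adjusted p = 0.0013). Gclm, a subunit of the enzyme that starts glutathione synthesis, rose by 1.12 (adjusted p = 0.00281). The exporter gene Abcc4 rose by 1.05 (adjusted p = 0.0138), and its call was lost without any 1 array other than the third at 5 weeks, with adjusted p up to 0.0613. The sulfiredoxin gene Srxn1 rose by 1.58 at its brightest probe set (adjusted p = 0.0013), but its other probe sets were at -0.18 and -1.59, the second of them called lower. The targets Hmox1 (0.02), Prdx1 (-0.05), Txn1 (-0.15) and Ftl1 (0.04) had adjusted p of 0.923, 0.756, 0.298 and 0.811. Nfe2l2, which encodes NRF2, had 6551, 6666 and 6405 at 8 weeks, against 6270, 6070 and 5916 at 5 weeks (change 0.10, adjusted p = 0.435). Of the 6 measured NRF2 regulators 0 were called, against 1.58% of all genes, so the 0 is near the background.

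Antioxidant genes and Gstp1 rose, so the antioxidant response element, the site of NRF2 with small MAF proteins, was searched. Its core TGACNNNGC was looked for on both strands, and matches were not compared with elements known from other work. The core was in the promoters of 2 of the 6 NRF2 targets that rose, and in 2 of the 6 focus markers that rose and had a promoter, beside 12.1% of all promoters, so the letters are common. The 3 lines show Gstp1 (chr1:210769656-210769955, minus strand), Gclm (chr2:213031885-213032184, plus strand) and Gpx2 (chr6:101229984-101230283, minus strand) with the core in capitals, read on the gene's strand or as its reverse complement. The promoter of Cd24, the second of the 2 focus markers, also holds the core and is not shown. For the promoters without it, absence says only that these letters are not in this window.
Gstp1: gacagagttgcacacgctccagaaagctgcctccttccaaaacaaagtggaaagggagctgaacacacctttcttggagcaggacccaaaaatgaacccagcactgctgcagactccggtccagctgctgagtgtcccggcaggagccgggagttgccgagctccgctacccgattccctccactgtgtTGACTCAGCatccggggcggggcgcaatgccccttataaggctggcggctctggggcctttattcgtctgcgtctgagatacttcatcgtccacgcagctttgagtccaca
Gclm: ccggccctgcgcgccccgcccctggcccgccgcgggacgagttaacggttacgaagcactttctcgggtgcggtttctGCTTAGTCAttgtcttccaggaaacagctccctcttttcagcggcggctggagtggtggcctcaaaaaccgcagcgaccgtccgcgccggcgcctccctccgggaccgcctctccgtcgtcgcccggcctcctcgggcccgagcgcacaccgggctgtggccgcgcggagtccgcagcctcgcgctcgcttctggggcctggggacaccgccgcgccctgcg
Gpx2: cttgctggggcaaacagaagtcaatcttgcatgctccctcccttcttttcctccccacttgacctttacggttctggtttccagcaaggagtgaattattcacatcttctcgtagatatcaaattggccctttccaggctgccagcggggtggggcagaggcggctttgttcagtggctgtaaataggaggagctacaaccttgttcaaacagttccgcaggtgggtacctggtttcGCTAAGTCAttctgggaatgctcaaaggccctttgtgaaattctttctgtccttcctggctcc

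**Figure D3:**
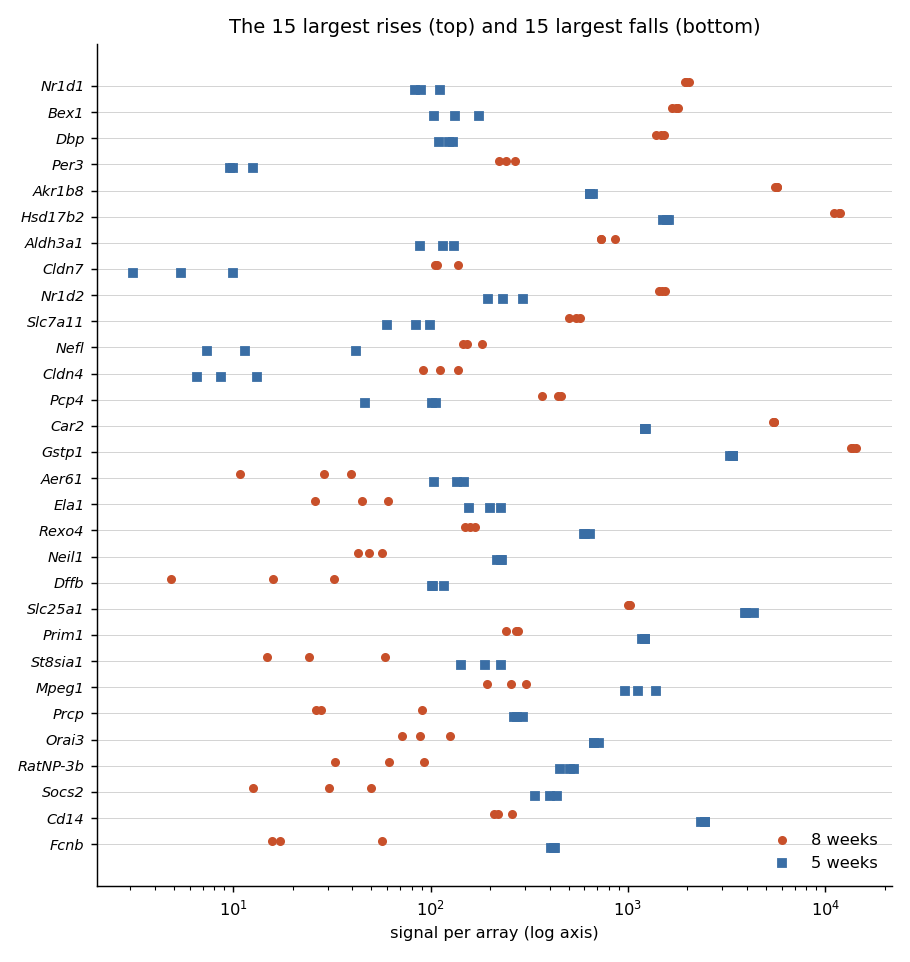
Signal on each array (horizontal log axis) of the 15 genes with the largest rise and the 15 with the largest fall, 8-week arrays as orange circles above 5-week arrays as blue squares. The groups do not overlap in any row, which the choice of genes required, and several falls such as Dffb spread widely at 8 weeks (4.81 to 32.4).

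Genes outside these lists also stood among the largest rises, shown in the plot of the 15 largest rises and falls. Bex1, a small adaptor protein best known from neurons, had 1748, 1799 and 1661 at 8 weeks, against 133, 175 and 104 at 5 weeks. Car2, which encodes carbonic anhydrase 2, had 5401, 5484 and 5481 at 8 weeks, against 1225, 1237 and 1225 at 5 weeks. Hsd17b2, an enzyme that inactivates estradiol and testosterone, had 11042, 11870 and 11658 at 8 weeks, against 1569, 1503 and 1608 at 5 weeks. All 3 differed far beyond the spread between arrays. The changes were 3.54 ± 0.18 for Bex1 (SE, adjusted p = 0.00174), 2.14 ± 0.0674 for Car2 (adjusted p = 0.000446) and 2.87 ± 0.076 for Hsd17b2 (adjusted p = 0.000302). Hsd17b2 averaged 9231, 1398 and 1653 at 12, 16 and 18 weeks, while Bex1 averaged 5923, 4698 and 4349. Pcp4, a calmodulin-binding protein of neurons, rose by 2.18 and Nefl, the neurofilament light chain, by 2.40 (adjusted p = 0.0153 and 0.0202). Their calls were lost without any 1 of the 3 arrays at 8 weeks, and that of Nefl also without the first or the second at 5 weeks, with adjusted p up to 0.0656 and 0.0757.

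Markers of bile duct and progenitor cells were partly higher. Of 22 measured markers 4 were called higher and 0 lower, against 0.848% and 0.733% of all genes, with a list median of 0.55. The tight junction gene Cldn7 had 105, 137 and 108 at 8 weeks, against 5.4, 9.99 and 3.11 at 5 weeks, and Cldn4 had 111, 91.3 and 137 at 8 weeks, against 13.1, 6.57 and 8.67 at 5 weeks. The 5-week signals of both claudins lie in the dim range, so the changes of 2.58 (adjusted p = 0.00239) and 2.34 (adjusted p = 0.00324) depend on the pseudocount. The chloride channel gene Cftr rose by 1.13 (adjusted p = 0.0114) and lost its call without the second 8-week array (adjusted p = 0.0508), and Cd24 is counted here as well. Defining keratins were not called. Krt19 was at 0.47 (adjusted p = 0.171), Krt7 was dim in both groups, and Epcam, listed as Tacstd1, had 1398, 1316 and 1480 at 8 weeks, against 1810, 1796 and 1658 at 5 weeks (change -0.33, adjusted p = 0.0829). The summed signal of the 22 markers was 37871 to 40236 at 8 weeks and 29541 to 30989 at 5 weeks.

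For proliferation and matrix genes the counts of calls stand beside 1.58% of all genes called, so that a count of 0 in lists of this size is near the background. Of 41 mitosis genes 0 were called, with a median of 0.23, and 33 were above 0 and 8 below. Without the fold threshold 5 of them passed as higher and 1 as lower, beside 9.1% of all genes in either direction. Mki67 had 460, 406 and 431 at 8 weeks, against 341, 315 and 334 at 5 weeks (change 0.37, adjusted p = 0.0575). Cdk1, listed as Cdc2a, was at -0.01 (adjusted p = 0.942). Among 40 genes of the G1/S step the cyclin gene Ccnd1 rose by 1.22, with 3921, 3885 and 3742 at 8 weeks, against 1691, 1634 and 1618 at 5 weeks (adjusted p = 0.00225). Prim1, a DNA primase subunit, fell by 2.14, with 278, 240 and 269 at 8 weeks, against 1182, 1222 and 1212 at 5 weeks (adjusted p = 0.000844). Prim1 averaged 829, 1189 and 1377 at 12, 16 and 18 weeks. Of 19 collagens 0 were called at a median of 0.31, and 16 were above 0 and 3 below. Without the fold threshold 4 of them passed as higher and 0 as lower. Col1a1 was at 0.71 (adjusted p = 0.0267, under 2-fold), while Tgfb1, the main fibrogenic cytokine gene, was at -0.04 (adjusted p = 0.87). The macrophage elastase gene Mmp12 rose by 1.40 (adjusted p = 0.0043). Of 23 p53 targets 0 were called, at a median of -0.09. Cdkn1a, the cell cycle inhibitor p21, had 5992, 6131 and 6147 at 8 weeks, against 6631, 6658 and 6764 at 5 weeks (change -0.13, adjusted p = 0.296).

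The clearest falls in a list were those of neutrophil genes. Of 9 measured markers 4 were called lower and 0 higher, against 0.733% of all genes called lower, and the list median was -1.22. S100a9 had 1664, 1665 and 1612 at 8 weeks, against 3908, 3806 and 3894 at 5 weeks, and its partner S100a8 had 783, 642 and 714 at 8 weeks, against 1799, 1974 and 1992 at 5 weeks. These genes encode the calprotectin subunits, which neutrophils and monocytes hold in large amounts. Every 8-week array lay below every 5-week array for both (changes -1.22 ± 0.069 and -1.41 ± 0.104, SE, adjusted p = 0.00207 and 0.0034). The neutrophil defensin gene RatNP-3b fell by 2.78 (adjusted p = 0.00886) and its relative Defa by 1.60 (adjusted p = 0.00294). The defensin genes are nearly alike, so their probe sets may not be independent. The neutrophil receptor genes Csf3r and Il8rb were at -0.08 and 0.45 (adjusted p = 0.82 and 0.455), and Il8rb was dim in both groups. The summed signal of the 9 markers was 2796 to 2952 at 8 weeks and 7168 to 7285 at 5 weeks.

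Monocyte and lectin genes fell in part. Cd14, the co-receptor for bacterial lipopolysaccharide, had 257, 219 and 209 at 8 weeks, against 2455, 2338 and 2451 at 5 weeks (change -3.32 ± 0.1, SE, adjusted p = 0.000445). Fcnb, a ficolin made by myeloid cells, had 56.5, 15.7 and 17.2 at 8 weeks, against 422, 424 and 406 at 5 weeks (change -3.35 ± 0.336, adjusted p = 0.00767). Of 16 monocyte and recruited macrophage markers 3 were called lower, which were Cd14, the chemokine receptor gene Ccr2 (-1.63, adjusted p = 0.0077) and Ly6c (-1.28, adjusted p = 0.00436), and 0 were called higher, against 0.733% and 0.848% of all genes. The list median was -0.14. Ccr2 was dim in both groups, with 5.12, 6.9 and 12.3 at 8 weeks, against 47.5, 58.2 and 69.3 at 5 weeks, and its call was lost at a pseudocount of 64. The macrophage genes Mrc1, Tyrobp and Itgam were at -0.07, -0.17 and 0.04 (adjusted p = 0.653, 0.502 and 0.945). Gpnmb rose by 0.76 (adjusted p = 0.0075) and Spp1 by 0.82, both under 2-fold. Without the fold threshold 3 of the 16 markers passed as higher and 4 as lower, beside 9.1% of all genes in either direction. Of 12 Kupffer cell markers 0 were called, against 1.58% of all genes, so the 0 is near the background. Mpeg1, which encodes the pore protein perforin-2 of macrophages, fell by 2.15 with 192, 303 and 254 at 8 weeks, against 960, 1118 and 1387 at 5 weeks (adjusted p = 0.00742). The neutrophil attractant gene Cxcl1 fell by 1.56 (adjusted p = 0.0063), while the B cell attractant gene Cxcl13 rose by 1.05 (adjusted p = 0.00528), a call lost without the first 8-week array, where the change was just under 2-fold. Cd14 averaged 1866, 1731 and 1784 at 12, 16 and 18 weeks, so the 8-week arrays were the lowest of the 5 treated groups.

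Lymphoid and interferon genes gave mixed calls. Of 12 B and plasma cell markers 1 was called lower and 0 higher, against 0.733% and 0.848% of all genes. It was the plasma cell gene Mzb1, listed as RGD1310251 (-1.66, adjusted p = 0.0277), and the call was lost without any 1 array other than the third at 8 weeks, with adjusted p up to 0.0947. Of 22 T and NK cell markers 0 were called, against 1.58% of all genes, so the 0 is near the background. Of 41 interferon response genes 2 were called higher and 3 lower, against 0.848% and 0.733% of all genes, with a median of -0.18. The interferon-induced genes Igtp, Oas1a and G1p2 (now Isg15) fell by 1.22, 1.10 and 1.07 (adjusted p = 0.00314, 0.00405 and 0.00317), while Ifit1 and the class I gene RT1-N3 rose by 1.46 and 1.34 (adjusted p = 0.0212 and 0.00179). The other probe set of RT1-N3 was at 0.22, and the mean of both, at 0.78, was not called. The Ifit1 call was lost without the first 5-week array or any 1 of the 8-week arrays, with adjusted p up to 0.075. Cd74, the class II invariant chain, was at 0.45 (adjusted p = 0.0316, under 2-fold).

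**Figure D4:**
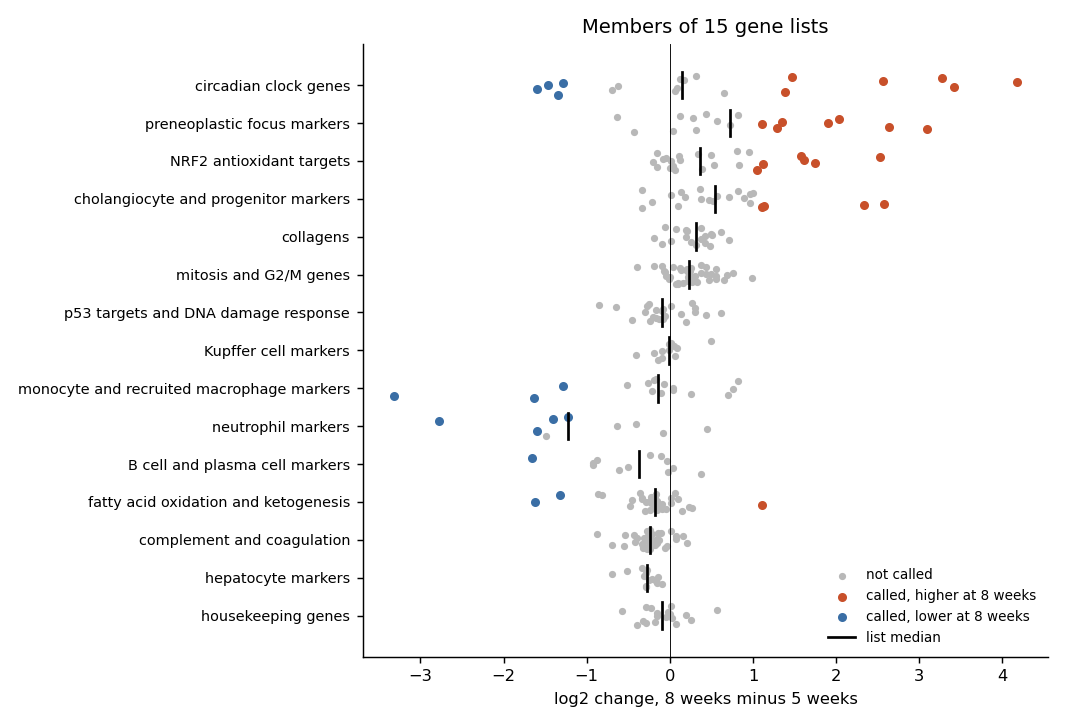
Log2 change (8 weeks minus 5 weeks) of every measured member of 15 gene lists, with called members in orange (higher) or blue (lower) and black bars at list medians. The focus markers have a median of 0.72, the neutrophil markers one of -1.22 and the 14 hepatocyte markers one of -0.28 with no member called.

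Genes of hepatocyte function were mostly slightly lower in value, with few calls. All 14 hepatocyte markers were lower in every 8-week array than in every 5-week array, with a median of -0.28 and 0 calls, beside 39.6% of all genes whose arrays did not overlap in either direction. Alb had 21123, 27874 and 27765 at 8 weeks, against 28193, 32912 and 32105 at 5 weeks (change -0.29, adjusted p = 0.285), and Hnf4a, a master regulator of hepatocyte genes, was at -0.69 (adjusted p = 0.0534). Of 38 cytochrome P450 genes and of 40 complement and coagulation genes 0 were called, at medians of -0.20 and -0.24. Against 1.58% of all genes called, a count of 0 in lists of this size is near the background. Without the fold threshold 2 of the 38 P450 genes passed as higher and 11 as lower. Of the 40 complement and coagulation genes 0 passed as higher and 6 as lower, beside 9.1% of all genes in either direction. In these lists every 8-week array lay below every 5-week array for 22 and 31 genes and above for 6 and 2. Beside these, the 18 housekeeping genes had a median of -0.10 with 12 below 0 and 6 above, among them Gapdh at -0.32 and Actb at -0.39 (adjusted p = 0.0616 and 0.0324). The 70 cytosolic ribosomal protein genes had a median of 0.02, and the 1392 brightest of all genes had one of -0.10. The summed signal was also lower on every 8-week array, and its part in the hepatocyte values was not tested.

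Single metabolic genes changed by more. Slc25a1, the mitochondrial citrate carrier that supplies lipid synthesis, had 1001, 1029 and 1006 at 8 weeks, against 3933, 4330 and 3981 at 5 weeks (change -1.99 ± 0.0772, SE, adjusted p = 0.000844). Ehhadh, a peroxisomal enzyme of fatty acid oxidation, had 2767, 2779 and 2598 at 8 weeks, against 8647, 8352 and 8196 at 5 weeks (change -1.62 ± 0.0746, adjusted p = 0.0013). Both were lower on each 8-week array. Of 34 fatty acid oxidation and ketogenesis genes 2 fell and 1 rose, against 0.733% and 0.848% of all genes. The other fall was Pdk4, the kinase that blocks pyruvate entry (-1.32, adjusted p = 0.0289), lost without any 1 array other than the third at 8 weeks with adjusted p up to 0.0954. The rise was Cpt1a, the gate of mitochondrial fatty acid import, with 4141, 4270 and 4011 at 8 weeks, against 2186, 1908 and 1684 at 5 weeks (1.11, adjusted p = 0.00861). The other probe set of Cpt1a was at 0.17, and the mean of both, at 0.64, was not called. The elongase gene Elovl5 fell by 1.43 (adjusted p = 0.00174) and the lipase inhibitor gene Angptl4 by 1.14 (adjusted p = 0.00562). Among amino acid genes, Bhmt, which remakes methionine, fell by 1.14 (adjusted p = 0.00299) and Sds, which breaks down serine, rose by 1.08 (adjusted p = 0.00405). The serine synthesis genes Phgdh and Psat1 rose by 1.33 and 1.01 (adjusted p = 0.0231 and 0.00698). Phgdh lost its call without any 1 array other than the first at 5 weeks (adjusted p up to 0.0868), and Psat1 without the first 5-week or the second 8-week array, where its change was as low as 0.94. Nr0b2, which encodes the bile acid sensor partner SHP, rose by 1.22 and the sterol exporter gene Abcg5 by 1.36 (adjusted p = 0.00503 and 0.00755).

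Growth hormone and sex-dependent genes went in both directions. Socs2, a growth hormone target that dampens its receptor, had 49.8, 12.5 and 30.5 at 8 weeks, against 401, 337 and 439 at 5 weeks (change -3.20 ± 0.318, SE, adjusted p = 0.0076). Of 37 genes 3 rose and 3 fell, against 0.848% and 0.733% of all genes, and the median was -0.24. Besides Hsd17b2, the female-biased sulfotransferase gene Sult2a2 rose by 1.07 (adjusted p = 0.00466) and Akr1b7, an aldo-keto reductase, rose 2.01-fold (adjusted p = 0.00338), a call lost without the second 5-week or the first or the third 8-week array, where the change was as low as 0.98. The male-biased urinary protein genes Obp3 and Mup5 fell by 1.03 and 1.01 (adjusted p = 0.00562 and 0.0255). Obp3 lost its call without the second array of either group, with a change of -0.98 at the least, and Mup5 without any 1 array, with adjusted p up to 0.082. Obp3 averaged 152, 90.9 and 82.1 at 12, 16 and 18 weeks, against 4402 at 8 weeks and 8993 at 5 weeks.

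Stress, iron and metal genes added a few calls. The metallothionein genes Mt1a and Mt2A, whose products bind zinc and copper, rose by 1.65 and 1.21 (adjusted p = 0.00133 and 0.00493). Hamp, the iron hormone hepcidin, had 14601, 16817 and 15317 at 8 weeks, against 6768, 6925 and 6479 at 5 weeks (change 1.21 ± 0.0874, SE, adjusted p = 0.00326). Of 27 immediate early and AP-1 genes 3 rose and 0 fell, against 0.848% and 0.733% of all genes. The 3 were Ier2, Klf10 and Cyr61 at 1.21, 1.18 and 1.16 (adjusted p = 0.00239, 0.00629 and 0.0126), the Cyr61 call being lost without the first 5-week array (adjusted p = 0.0549). Sdf2l1, a chaperone partner of the endoplasmic reticulum, fell by 1.73 with 869, 817 and 909 at 8 weeks, against 3143, 2952 and 2660 at 5 weeks (adjusted p = 0.00207). It averaged 2501, 2464 and 2392 at 12, 16 and 18 weeks.

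Among the dimmer probe sets of a gene, calls lower outnumbered calls higher. The 5973 further probe sets of genes already represented gave 201 calls, or 3.37%, with 29 higher (0.486%) and 172 lower (2.88%), and in 10 of the 172 the brightest probe set of the gene was also called lower. Over all 31042 probe sets 616 were called, or 1.98%, with 233 higher (0.751%) and 383 lower (1.23%). The 11157 probe sets without 1 gene symbol gave 195 calls (1.75%), 86 higher (0.771%) and 109 lower (0.977%). Acot2, a mitochondrial thioesterase gene, had 28.6, 27.8 and 39.9 at 8 weeks, against 229, 233 and 259 at 5 weeks on a dimmer probe set of the gene (change -2.42, adjusted p = 0.00174), while its brightest probe set was at 0.23. A further probe set of Cdkn1a was called at -1.23, where the brightest was at -0.13. Orai3, a calcium channel gene among the largest falls, had 71.5, 88.4 and 125 at 8 weeks, against 710, 673 and 672 at 5 weeks (change -2.69, adjusted p = 0.00301), while its other probe sets were at 0.12 and -0.05. The higher 3′ to 5′ ratios of the 8-week arrays stand beside these and all other falls reported here. Their part in any fall was not tested. At 12, 16 and 18 weeks Slc25a1 averaged 3231, 2414 and 3223, Mpeg1 1356, 1158 and 1142, and Rexo4 759, 762 and 731. All of these and Prim1 were lowest at 8 weeks of the 5 treated groups. Of the 15 largest falls, St8sia1 and RatNP-3b were lower still at a later time, at 28.2 at 12 weeks and 17.3 at 18 weeks.

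**Figure D5:**
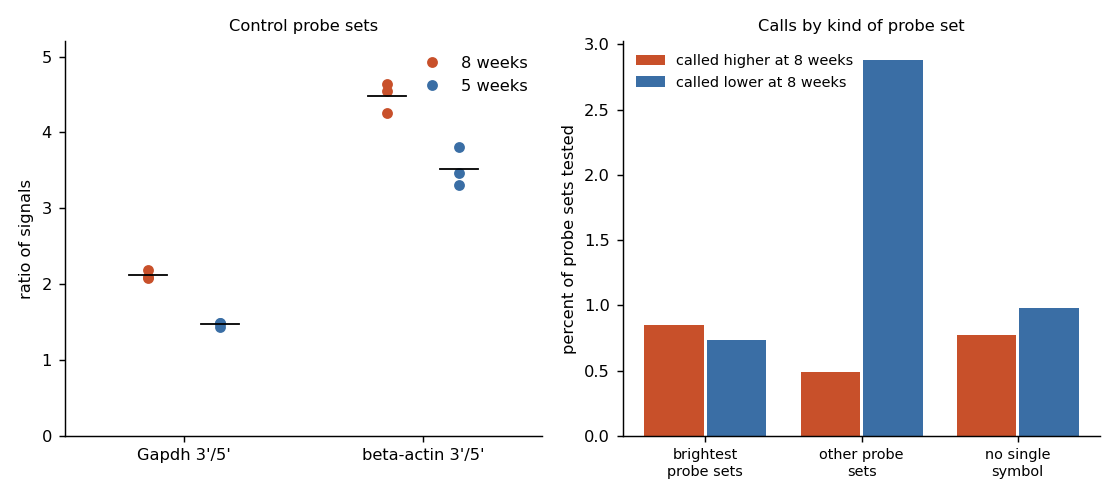
Left, ratio of 3′ to 5′ signal of the Gapdh and beta-actin controls on each array (points) with group means (lines), 8 weeks left of 5 weeks; right, percent of probe sets called higher (orange) or lower (blue) at 8 weeks. The other probe sets of named genes have 0.486% higher and 2.88% lower calls, beside 0.848% and 0.733% for the brightest probe sets.

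The other genes among the 15 largest falls have unlike roles. Neil1, a DNA glycosylase of base excision repair, had 48.7, 56.5 and 43 at 8 weeks, against 231, 228 and 217 at 5 weeks (change -1.89, adjusted p = 0.00184). Rexo4 had 159, 150 and 168 at 8 weeks, against 641, 603 and 597 at 5 weeks (change -1.85, adjusted p = 0.00112). Both were lower on every 8-week array. A further 5 genes of the 15 largest falls lost their call without some arrays. Prcp, a lysosomal carboxypeptidase, was at -2.34 and lost its call without any 1 array other than the second at 8 weeks. St8sia1, a ganglioside synthase, was at -2.14 and lost it without any 1 array other than the first at 8 weeks. Dffb, the nuclease that cuts DNA in apoptosis, was at -1.95 and lost it without any 1 of the 5-week arrays or the second at 8 weeks. Aer61 (now Eogt), at -1.83, lost it without any 1 of the 5-week arrays or the first at 8 weeks, and Ela1 (now Cela1), an elastase, at -1.84, without the first or the second at 5 weeks or the third at 8 weeks. The highest adjusted p in these settings were 0.0865 for Prcp, 0.0927 for St8sia1, 0.0835 for Dffb, 0.0895 for Aer61 and 0.0691 for Ela1. In Prcp the 8-week signals were 27.9, 90.4 and 26.1, against 275, 295 and 265 at 5 weeks.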

How the data were processed

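Total RNA of 18 liver samples was labelled with biotin and hybridised to Affymetrix rat whole-genome arrays, and 6 arrays enter the tests. The authors deposited a linear intensity for each probe set on each array, made with GCOS 2.0 per the submitters' processing notes, with a scaling target not given in the sources used here. A deposited workbook held the same intensity values within 0.1 in 15 columns and gave the gene symbols, and 3 further columns of per-sample values in it were not used. Of 31099 probe sets 57 were controls. Of the 31042 tested, 19885 had 1 symbol (13912 genes), 23 had several and 11134 had none. Current names came from RefSeq through accessions (3063), symbols (12346) or synonyms (2984), with 1492 kept as in the workbook.

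The values log2(signal + 16), not scaled again, were fitted in limma 3.58.1 (R 4.3.3) on the 6 arrays, 3 per group, with Benjamini-Hochberg adjustment and two-sided tests. The number of arrays limits the precision, and no detection calls were given, so no level is stated as absent. On simulated data with 100 probe sets changed by 1.5 and 100 by 2.5 (log2), 81 and 95 were called, with 8 false calls among 31042. Array ratios were tested with an exact permutation test in scipy 1.17.1. Named were the 15 largest rises and falls with arrays that do not overlap and no provisional symbol, up to 4 called members per list plus members against its majority, the 4 brightest calls per direction and 14 preset genes, with the other called members of the clock, focus, NRF2, interferon and sex-dependent lists added after their values were seen. Members not called were added as contrasts, likewise after their values were seen. The comparison and the 56 gene lists were chosen with earlier results of these data known. To see whether replicate numbers marked pairs, deviations of each array from its group mean were correlated between the groups, over the brighter probe sets. For same-numbered arrays these correlations of deviations (0.0293, 0.0506 and 0.132) were not all above 0.1. For arrays of different number they lay between -0.0969 and 0.0531. Replicate numbers were not taken as pairs, a choice that so few correlations cannot settle. A few genes that the naming rule chose are not reported here.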

Additional observations from a re-analysis of the deposited data

How the results depend on the processing

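Quantile normalization, median centring, a pseudocount of 1, a trended and robust variance and a fit with all 15 treated arrays kept the counts of called probe sets and genes, in all and in each direction, within 1.5 times. The calls of Psat1, Nr2f2, Obp3 and Bhmt were lost under quantile normalization, those of Psat1 and Akr1b7 under median centring and those of Aer61, Dffb and St8sia1 at a pseudocount of 1. With a pseudocount of 64, 325 probe sets (110 higher, 215 lower) and 143 genes (68 higher) were called, since a larger pseudocount shrinks changes of dim genes by construction; Cd24, Ccr2, Cftr, Abcc4, Cyr61, Bhlhb3 and Psat1 were among the calls lost. A filter at the 40th percentile left 153 probe sets higher. Without a fold threshold 2505 probe sets (1181 higher, 1324 lower) and 1266 genes (739 higher, 527 lower) were called, and with a threshold of 3-fold 168 (69 higher, 99 lower) and 66 (35 higher, 31 lower). With the replicate block, which takes the numbers as pairs, 11 probe sets (10 higher, 1 lower) and 6 genes (5 higher, 1 lower) were called. Under it 82 of the 88 called genes named by the rule lost their call, and Nr1d1, Dbp, Per3, Akr1b8, Hsd17b2 and Cd14 kept it. Without 1 array in turn, 435 to 514 probe sets (158 to 230 higher, 258 to 320 lower) and 169 to 199 genes (87 to 116 higher, 81 to 100 lower) were called, and the median of all genes was 0.06 to 0.08. With the mean of all probe sets of a gene that median was 0.03, and Srxn1 was at -0.06; the calls of RT1-N3, Cpt1a, Orai3, Nr2f2, Obp3, Tef and Mup5 were lost. Of the 88 called genes named by the rule, 21 lost their call without at least 1 array. Among the called list members added later, Bhlhb3, Ggt1, Mup5 and Tef also lost it, while G1p2 and Gclm kept it. Clock genes called higher numbered 4 to 6 and lower 4 without 1 array, focus markers 6 to 7, NRF2 targets 5 to 6 and neutrophil markers 4 to 5. Of the genes called higher, 41 had a 5-week mean under 81.6, where the change depends on the pseudocount. The fits use arrays that the labels call technical replicates.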

Other observations

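Further lists had shares of calls near the 1.58% of all genes, which is no result about them. Of 70 cytosolic ribosomal protein genes 1 was called, Rpl39, which rose by 1.87 (adjusted p = 0.00779, limma) and has many processed copies in the genome. Of 54 respiratory chain and ATP synthase genes 1 was called, Atp5g1 (now Atp5mc1), a subunit c gene, with 3370, 3475 and 3339 at 8 weeks, against 9352, 8953 and 9034 at 5 weeks (change -1.42, adjusted p = 0.00166). The list medians were 0.02 and -0.12. Of 30 constitutive proteasome genes and of 14 heat shock genes 0 were called. Aldh1a7, an aldehyde dehydrogenase, rose by 1.14 (adjusted p = 0.00473).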
